A study of Mus musculus with 2 samples.

Results

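Gamma cells are the islet cells that make pancreatic polypeptide, the product of Ppy. Here they are the cells of the control library in which Ppy took at least 5% of a cell's transcripts while Sst, Gcg and the sum of Ins1 and Ins2 each took less than 5%. The count of a transcript is its number of unique molecular identifiers (UMIs), which mark single captured molecules. Only control barcodes with at least 6825 UMIs, at least 500 genes and at most 15% of UMIs from mitochondrial genes were taken as cells. For the other library, named Isl1CKO below, the UMI minimum was 1000 and the other limits were the same. The rule found 195 gamma cells among 2496 control cells, a share of 7.81% (exact binomial 95% interval 6.79 to 8.94, counting error only), out of 5483 cells in both libraries. The cells were thus chosen by the measured shares of Ppy, Sst, Gcg, Ins1 and Ins2, whose values below only describe them.

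The study sorted tdTomato+ cells from dissociated islets of mice at postnatal day 9 and profiled them by droplet single-cell RNA sequencing of transcript 3' ends, with 1 library per genotype. The tested genotype was Neurod1 Cre/+; Isl1f/f (named Isl1CKO) and the control was Neurod1 Cre/+; Isl1f/+. Both carry a Cre driven from the Neurod1 locus, which is active in endocrine cells, and the control has 1 floxed allele of Isl1, the gene of a LIM-homeodomain transcription factor of islet cells. Each library's title gives the number 6, read here as 6 pooled animals, and the tissue was dissociated with the transcription inhibitor actinomycin D. With 1 library per genotype no difference has a replicate check, so no p-value is given. Cells of 1 pool are not replicates of a condition, and every interval covers counting error only.

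Pancreatic polypeptide belongs to the neuropeptide Y family together with peptide YY (Pyy) and neuropeptide Y (Npy). Gamma cells are a minority of islet cells and are richest in the part of the pancreas that grows from the ventral bud. The hormone is released after meals under vagal control and acts through the receptor encoded by Npy4r to dampen pancreatic secretion and food intake. In the mouse, the transcription factor Hhex is known to maintain delta cells.

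Ppy and Pyy lie side by side in the same orientation on the minus strand of chromosome 11. Ppy (ENSMUSG00000017316.13) spans chr11:102099930-102101319 and Pyy (ENSMUSG00000017311.15) spans chr11:102106676-102107832, in GRCm38 with GENCODE M21, and 5356 bases separate them. The 250 bases before each start are shown because these 2 genes gave the most abundant transcripts of the gamma cells. They come from RefSeq on GRCm38.p6, read 5′ to 3′ on the minus strand, and capitals mark TATAAA.
Ppy, chr11:102101320-102101569: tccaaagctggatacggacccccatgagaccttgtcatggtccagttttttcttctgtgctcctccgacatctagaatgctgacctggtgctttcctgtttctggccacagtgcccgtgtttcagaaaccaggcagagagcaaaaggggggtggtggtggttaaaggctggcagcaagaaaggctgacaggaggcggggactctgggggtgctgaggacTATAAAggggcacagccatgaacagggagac
Pyy, chr11:102107833-102108082: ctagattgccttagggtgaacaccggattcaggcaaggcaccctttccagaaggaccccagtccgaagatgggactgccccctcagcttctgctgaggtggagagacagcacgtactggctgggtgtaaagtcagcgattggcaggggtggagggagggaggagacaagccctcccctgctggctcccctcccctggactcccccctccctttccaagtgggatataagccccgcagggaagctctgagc
TATAAA occurs 1 time in the Ppy window, from 31 to 26 bases before the start, and 0 times in the Pyy window. It was found on either strand in 12.4% of the 32851 promoter windows of this length in the same table. The homeodomain core TAAT, searched on both strands, occurs in 54.9% of all windows and in neither of these. The E-box CANNTG, which reads the same on both strands, occurs in 66.2% of all windows, 1 time in the Pyy window and 0 times in the Ppy window. Aligned at their starts without gaps, the windows share 61 of 250 bases (24.4%). A match describes letters in a window and says nothing of binding.

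The gamma cells held between 8233 and 61233 UMIs, with a median of 22998, against a median of 22643 in the other 2301 control cells. The other control classes were cut by the same hormone thresholds and number 187 cells rich in both Sst and Ppy, 343 delta cells with Sst at 5% or more and Ppy below it, 609 alpha cells with Gcg and 876 beta cells with insulin. A doublet caller (Scrublet) marked 1 of the 195 gamma cells and 63 control cells in all, and these were kept. No gamma barcode occurs among the Isl1CKO cells, and 4 barcodes of control cells do. Xist without Y-linked transcripts was counted in 37 gamma cells and Y-linked transcripts without Xist in 135, so the cells came from animals of both sexes.

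Only 1 of 2987 Isl1CKO cells met the same hormone rule (0.0335%, exact interval 0.000848 to 0.186), against 195 of 2496 control cells. Ppy reached 5% of UMIs in 3 Isl1CKO cells and in 425 control cells. Levels were also summed over all cells taken from each library, without its other barcodes. Ppy stood at 312 CPM (UMIs scaled to an equal total) in cells of the library labelled Isl1CKO and at 21012 CPM in control cells. Pyy stood at 3348 CPM in Isl1CKO and 34562 CPM in control cells, and Tspan8 at 91.9 and 162 CPM. Isl1 itself was counted at 459 CPM in Isl1CKO and 254 CPM in control cells. The sources used here do not state which part of Isl1 is floxed, so counts from the 3' end do not check the deletion. A loss of Ppy transcript and a loss of the cells that make it cannot be told apart with a rule set on Ppy.

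Ppy and Pyy together took close to equal and very large parts of the gamma transcriptome. Ppy ranged from 5.03% to 40.7% of a cell's UMIs, with a median of 18.8%, and made up 21.3% of all UMIs of the 195 cells. Pyy, which the rule did not use, ranged from 2.72% to 41.3% with a median of 19.5% and made up 21.7% of all UMIs. Pyy was also abundant in delta cells low in Ppy, with a median of 11.0%, and in the cells rich in Sst and Ppy, with a median of 10.1%. Alpha cells had a median of 0.528% and beta cells of 0.115%. The gamma and delta ranges of Pyy overlapped, since single delta cells reached 28.2%.

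Cells lay on both sides of the Ppy and Sst limits. Just inside the Ppy threshold, between 5% and 6%, lay 10 cells, the nearest at 5.03%, and 10 cells that met the other limits lay between 4% and 5%, the nearest at 4.77%. At the Sst limit, 10 cells lay between 4% and 5%, the nearest at 4.92%, and 8 lay between 5% and 6%, the nearest at 5.09%. Between 4% and 5% lay 2 cells each for Gcg and for insulin.

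In most gamma cells Gcg and insulin stood no higher than in cells that should lack them. The median Gcg share was 0.0568% in gamma cells and 0.0986% in the 42 control cells with mesenchymal transcripts, and the median insulin share was 0.218% in gamma cells and 0.385% in those mesenchymal cells. Empty droplets, barcodes with 10 to 100 UMIs, held 4.73% Gcg and 44.8% insulin. Gcg reached 1% in 5 gamma cells and insulin in 10. Sst had a median of 0.0145% in gamma cells and 0.0134% in mesenchymal cells, but its upper part reached 4.92%. Iapp, which encodes islet amyloid polypeptide, had a median of 0.586% in gamma cells and 0.0283% in mesenchymal cells.

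Sst split the gamma cells into a large low group and a smaller one that ran up to the limit. In 143 of the 195 cells (73.3%, 66.5 to 79.4) Sst stayed below 0.1% of UMIs, with a median of 0.00973% and a highest value of 0.0867%. The other 52 cells had a median of 2.78%. The cut at 0.1% was chosen after these values were seen, and the groups are called Sst-low and Sst-containing gamma cells below. Median depth was 25114 UMIs in Sst-low and 12946 UMIs in Sst-containing cells.

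**Figure D1:**
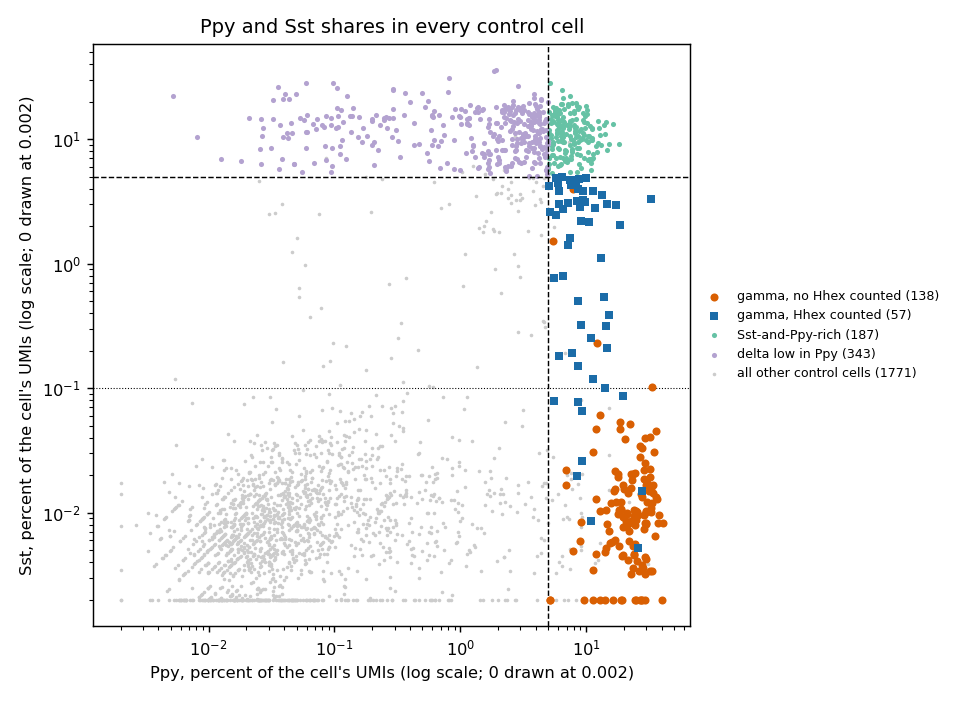
Each point is 1 control cell, placed by Ppy (x axis) and Sst (y axis) as percent of its UMIs on log axes; dashed lines are the 5% limits and the dotted line is the 0.1% cut. Gamma cells with no Hhex counted lie almost all below the dotted line, and gamma cells with Hhex counted lie mostly above it, below the cells rich in Sst and Ppy.

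The 2 groups differed in a fate regulator of delta cells. Hhex, a homeobox factor on chr19:37434810-37440731, stood at 11.4 CPM in Sst-low and 399 CPM in Sst-containing cells. At least 1 Hhex UMI was counted in 9 of the 143 Sst-low cells (6.29%, 2.92 to 11.6) and in 48 of the 52 Sst-containing cells (92.3%, 81.5 to 97.9).

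With every cell thinned to 6825 UMIs, Hhex was counted in 6 of the Sst-low cells and 43 of the Sst-containing cells. In cells of other types the unthinned share with a Hhex UMI was 98.4% in cells rich in Sst and Ppy, 96.2% in delta cells low in Ppy and 2.96% in alpha cells. Beta cells, with a median depth of 48207 UMIs, had a share of 4.57%. After thinning the share was 4.20% in Sst-low gamma cells, 1.64% in alpha cells and 1.26% in beta cells.

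Ppy itself was higher in the Sst-low group, with a median of 22.8% of UMIs against 8.67% in Sst-containing cells, and Pyy followed with 21.6% against 11.6%. Across all 195 cells the Ppy and Pyy shares had a Pearson correlation of 0.38 (Spearman 0.42). Within the 143 Sst-low cells it was 0.051 (Spearman 0.041). These are descriptions over cells of 1 library, in which both shares have the same total.

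**Figure D2:**
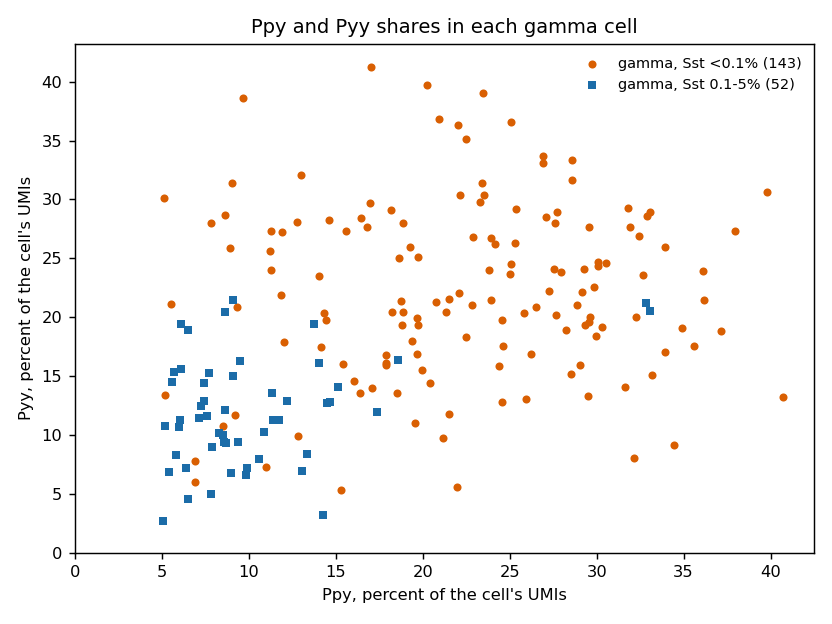
Each point is 1 of the 195 gamma cells, placed by Ppy (x axis) and Pyy (y axis) as percent of its UMIs, with Sst-low cells as circles and Sst-containing cells as squares. Sst-containing cells gather at low Ppy and low Pyy, while Sst-low cells spread up to 40.7% Ppy and 41.3% Pyy with no clear slope.

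Levels were also read along Ppy, which is a gene of the rule and moves with the Sst groups, so the bins restate that split in part. Hhex stood at 343 CPM in the 47 cells with 5 to 10% Ppy, 74.8 CPM in the 60 cells with 10 to 20% and 4.45 CPM in the 88 cells at 20% or more. Rbp4, the retinol-binding protein that is abundant in delta cells, stood at 8680.4, 3027 and 738 CPM over the same bins. Tspan8, a tetraspanin, varied less, at 668, 854 and 793 CPM. Median depth also increased along the bins, from 13220 UMIs in the lowest to 27630 UMIs in the highest, and its part in these values was not tested.

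With the 8 islet hormone genes left out, each control cell was placed among its 15 nearest cells by its other variable genes. The Sst-low gamma cells had other gamma cells as 84.9% of their neighbours, alpha cells as 4.48%, delta cells low in Ppy as 2.28% and cells rich in Sst and Ppy as 1.59%. Gamma cells make up 7.78% of the other cells a gamma cell could have met. The Sst-containing gamma cells had 17.9% gamma, 43.8% delta and 29.1% Sst-and-Ppy-rich neighbours. The cells rich in both hormones had 7.77% gamma and 52.2% delta neighbours, and 33.2% of their own class. Both mixes were mostly delta and Sst-and-Ppy-rich cells, with the gamma part higher for the Sst-containing gamma cells.

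**Figure D3:**
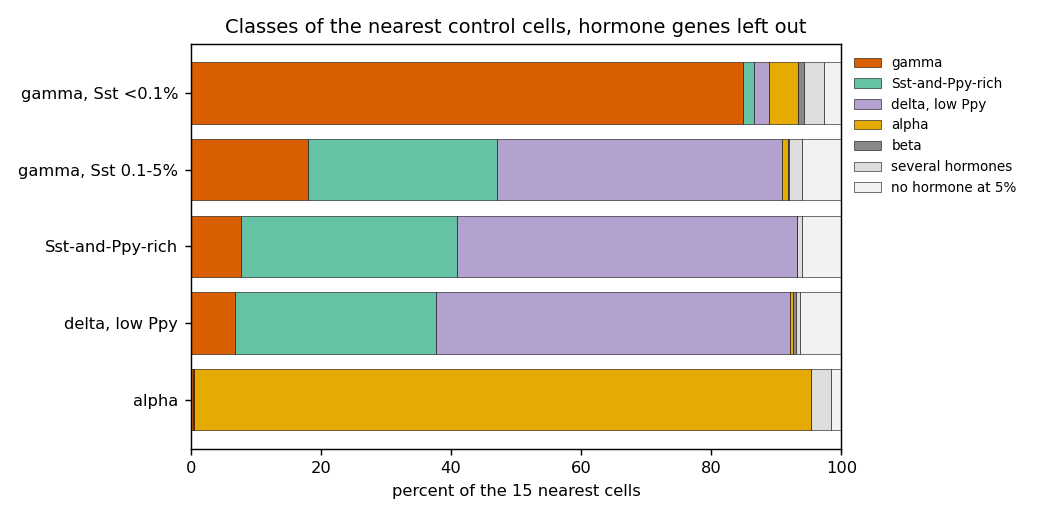
Each bar is 1 class of control cells, and its coloured parts are the classes of their 15 nearest cells in percent, with hormone genes left out. Orange gamma neighbours fill 84.9% of the bar of Sst-low gamma cells and 17.9% of the bar of Sst-containing ones.

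Clustering on the same genes gave 1 cluster of 137 cells that held 128 gamma cells, of which 126 were Sst-low. Its leading genes by fold included Pyy, Nkx6-3, Cd55, Npb, Cd9, Tspan8, Limch1, Ghrl and Folr1, and 2 of the 4 gamma markers, Pyy and Tspan8, are among them. A cluster of 432 cells led by Areg and Hhex held 40 gamma cells, 36 of them Sst-containing, with 230 delta cells and 127 cells rich in Sst and Ppy. Most Sst-low cells thus fell in a cluster of their own, while the Sst-containing cells met the rule with the leading genes of delta cells. Pyy and Tspan8 are not particular to this cluster. After thinning, a Tspan8 UMI was counted in 93.0% of Sst-low and 96.2% of Sst-containing gamma cells. Median Pyy was 21.6% of UMIs in Sst-low and 11.6% in Sst-containing gamma cells, and 11.0% in delta cells low in Ppy.

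Of the named gamma markers, Tspan8 (chr10:115816832-115849893) stood at 791 CPM in gamma cells (765 to 818), 672 CPM in cells rich in Sst and Ppy, 521 CPM in delta, 98.5 CPM in alpha and 23.7 CPM in beta cells. Every gamma cell held at least 1 Tspan8 UMI. After thinning 93.8% did, against 92.5% of Sst-and-Ppy-rich, 84.3% of delta and 32.7% of alpha cells. Etv1 (chr12:38779380-38870484), an ETS transcription factor, did not mark gamma cells against alpha cells. It stood at 211 CPM in gamma (198 to 225), 346 CPM in alpha, 185 CPM in delta and 5.67 CPM in beta cells. Folr1, a folate receptor, stood at 176 CPM in gamma, 148 CPM in delta and 28.0 CPM in alpha cells.

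Several other genes listed as gamma-cell genes from knowledge of islet profiling were scarce in these cells. Aqp3, a water and glycerol channel, had 0 UMIs in gamma cells, where the floor of 3 UMIs over the class is 0.674 CPM. Sertm1 had 3 UMIs. Id4, Thsd7a, Abcc9 and Cartpt each stood below 3 CPM. Meis2 stood at 306 CPM and Fev at 59.1 CPM in gamma cells, against 191 and 29.0 CPM in the other control cells. Of the 13 genes on that list, 11 could be compared with the other control cells, of which 3 (Tspan8, Pyy and Folr1) were at least 2-fold higher and 4 (Id4, Thsd7a, Abcc9 and Cartpt) at least 2-fold lower relative to the median gene, beside 1.5% and 10.4% of all genes compared. Within the peptide family, Npy was at 0 UMIs in gamma cells and 35.8 CPM in the others, and the receptor genes Npy1r, Npy2r, Npy4r and Npy5r were all at 0 UMIs in gamma cells. Dpp4, a protease that trims Pyy and pancreatic polypeptide, stood at 56.4 CPM in gamma and 45.9 CPM in other control cells.

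**Figure D4:**
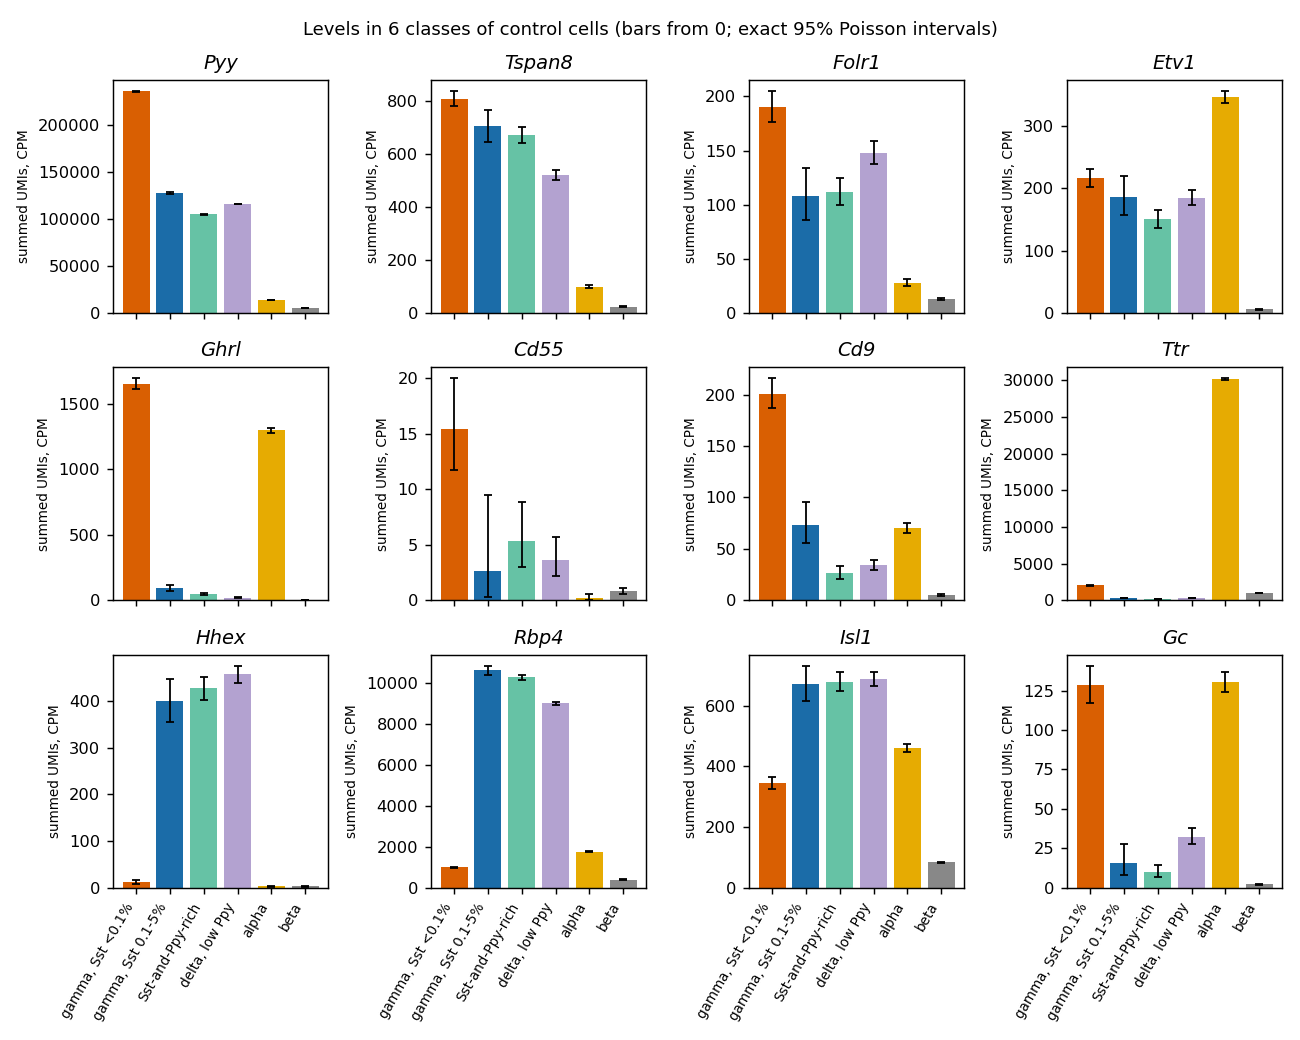
Bars give the summed level of each gene in CPM in 6 classes of control cells, with exact 95% Poisson intervals that cover counting error only. Cd9, Cd55, Gc and Ghrl are higher in Sst-low gamma cells than in Sst-containing ones, Hhex, Rbp4 and Isl1 run the other way, and Etv1 and Ttr are highest in alpha cells.

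Gamma cells were then compared with all other control cells by summed counts. A gene was counted as higher or lower when its CPM ratio was at least 2-fold away from that of the median gene, with at least 50 UMIs in the class with the higher CPM. Of 9649 genes, 145 (1.5%) were higher and 1003 (10.4%) lower, and for 65 and 268 of these the whole counting interval lay past 2-fold. With the Sst-low cells alone, 194 of 9826 genes (1.97%) were higher and 1135 (11.6%) lower. Beta cells supplied 41445543 of the 68010997 UMIs of the other cells. A ratio at the 50-UMI minimum can also pass the size rule through counting error alone.

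The highest genes included surface and secreted proteins. Nkx6-3, a homeobox factor known from gastric endocrine cells, stood at 13.0 CPM in gamma cells and 1.16 CPM in the other cells, a log2 ratio relative to the median gene of 3.40 (2.89 to 3.91). Cd55, which protects cells from complement, stood at 13.3 and 1.29 CPM (3.27), and Npb, the precursor of neuropeptide B, at 13.5 and 1.49 CPM (3.10). Pyy had a log2 ratio of 3.18, Tspan8 of 2.62, the tetraspanin gene Cd9 of 2.53, the actin-binding Limch1 of 2.53, cholecystokinin (Cck) of 2.49, the actin-severing Scin of 2.42, ghrelin (Ghrl) of 2.25 and Folr1 of 2.23. Several of these ratios rest on few cells. Of the 195 gamma cells, 17 (8.72%) held a UMI of Cck, 32 of Nkx6-3, 38 of Cd55 and 43 of Npb. After thinning, Nkx6-3 and Npb were each counted in 5.64% of gamma cells and Cd55 in 6.15%. The thinned shares in alpha cells were 3.12% for Nkx6-3, 3.61% for Npb and 0.164% for Cd55.

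The lowest genes came from beta and mesenchymal cells. The glucose transporter gene Slc2a2 stood at 2.92 CPM in gamma cells and 233 CPM in the other cells (-6.40), the glucose-6-phosphatase gene G6pc2 at 6.97 and 193 CPM (-4.88), and urocortin 3 (Ucn3), a marker of mature beta cells, at 2.25 and 96.8 CPM (-5.51). Prss53, Msln, Col3a1 and Dcn each had 1 UMI in gamma cells, with log2 ratios of -8.13 (-13.43 to -5.65), -7.85 (-13.15 to -5.37), -7.35 (-12.65 to -4.87) and -7.31 (-12.61 to -4.83). Sytl4, a granule-docking protein, and Tmem215 had 4 UMIs each, at -6.45 and -6.15. Npy, Tagln and Reg4 had 0 UMIs in gamma cells and were at least 56.3-fold, 24.5-fold and 20.5-fold lower, taking 3 UMIs over the class as the floor. Reads of Prss53 and Col3a1 may be shared with overlapping annotated genes on the same strand.

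By list, 14 of 16 compared beta-cell genes were lower in gamma cells than in the others and 0 were higher, with a median log2 ratio of -3.42 against 0 over all genes. Of the 13 alpha-cell genes, 3 were higher, with Gc and Tmem27 among them, and 6 were lower, with Irx1, Irx2, Ttr, Slc38a5 and Slc7a2 among them. Over all genes compared, 1.5% were higher and 10.4% lower, so that a count of 0 higher in a short list is near the background. Among 31 endocrine transcription factors 1 was higher and 7 were lower, the last including Pdx1, Mafa, Irx1, Irx2, Mnx1 and Id4. Of 16 genes of granules and prohormone processing, Cd9 was higher and Vgf and the zinc transporter Slc30a8 were lower. None of 8 immediate early genes and none of 16 unfolded protein response genes was higher, while Sdf2l1 of the last list was lower.

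Mesenchymal, endothelial and immune transcripts were scarce, while ductal and acinar lists were counted in most gamma cells. Summed over 195 gamma cells, 7 mesenchymal genes gave 4.72 CPM, 6 endothelial genes 6.74 CPM and 6 immune genes 3.37 CPM, with Pdgfra, Cdh5, Emcn, Ptprc, Tyrobp and Lyz2 at 0 UMIs. The 6 ductal genes summed to 297 CPM in gamma cells and 245 CPM in the other control cells and were counted in 98.5% of gamma cells, with Cftr at 0 UMIs. The 7 acinar genes summed to 289 CPM in gamma cells and 681 CPM in the other control cells. Within gamma cells they summed to 107 CPM in the Sst-low group and 1172 CPM in the Sst-containing group, where 1 cell reached 21741 CPM and the median cell 329 CPM. Delta cells low in Ppy had an acinar median of 277 CPM. The part of acinar and ductal transcripts in differences between the gamma groups was not tested.

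Against the 187 cells rich in both Sst and Ppy, the gamma cells had more of the alpha-type and less of the delta-type genes. Of 6322 genes, 173 (2.74%) were higher and 226 (3.57%) lower. Without centring on the median gene, which lay at a log2 ratio of -0.31, the counts were 121 higher and 447 lower. Of 11 alpha-cell genes, 8 were higher and 0 lower, with a median log2 ratio of 2.48 against 0 over all genes, and Irx2, Ttr, Gc, Pou3f4, Slc38a5 and Slc7a2 were among the 8. Of 6 delta-cell genes, Hhex, Rbp4 and Ghsr, the ghrelin receptor, were lower and 0 were higher.

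Ghrl stood at 1387 CPM in gamma cells and 43.8 CPM in the Sst-and-Ppy-rich cells (log2 5.29, 5.04 to 5.56). Ociad2 had 3 UMIs in the Sst-and-Ppy-rich cells and a log2 ratio of 6.15 (4.59 to 8.43). Higd1a, a mitochondrial protein induced by low oxygen, stood at 5.58 (4.20 to 7.46) and Kctd12b at 5.41. Pdk4, a kinase that restrains pyruvate oxidation, was at least 23.2-fold higher. Tmsb15b2 stood at 4.94, but it shares exons with near-identical copies of its family and is uncertain. Pcsk1, the prohormone convertase, stood at 95.1 and 47.7 CPM (1.30).

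The genes lower in gamma cells than in the cells rich in both hormones included Slc16a7, a monocarboxylate transporter, at 2.02 and 21.4 CPM (-3.09), and Dct, known from melanin synthesis, at 6.29 and 52.0 CPM (-2.74). Ly6h stood at -2.69, Cfap61 at -2.58, Frzb, a secreted Wnt antagonist, at -2.41, the potassium channel partner Dpp6 at -2.32, the ETS factor Ehf at -2.23 and Hhex at -2.15. These ratios rest on both gamma groups together. Ly6h, for instance, stood at 8.95 CPM in Sst-low and 176 CPM in Sst-containing gamma cells, and Frzb at 6.23 and 156 CPM.

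Against the 343 delta cells low in Ppy, 184 of 8331 genes (2.21%) were higher in gamma cells and 319 (3.83%) lower. Without centring on the median gene, at -0.45, the counts were 113 higher and 868 lower. Ghrl stood at 1387 CPM in gamma and 17.1 CPM in delta cells (6.79, 6.48 to 7.10). Ghrl is not particular to gamma cells, as it took 0.139% of all UMIs in gamma and 0.130% in alpha cells. Galnt13 stood at 6.06 with 3 UMIs in delta cells (4.48 to 8.36), Higd1a at 5.14, Kctd12b at 4.62 and lipoprotein lipase (Lpl) at 4.28. Gastrin (Gast) stood at 33.3 and 3.08 CPM (3.88, 3.13 to 4.72). It is not particular to gamma cells, as a Gast UMI was counted in 19.0% of gamma and 41.4% of alpha cells. After thinning these shares were 10.3% and 22.5%.

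Tph1, the enzyme that starts serotonin synthesis, had 0 UMIs in gamma cells and 50 in delta cells, and was at least 10.5-fold lower. Tnfrsf11b, which encodes osteoprotegerin, and Aspm, a spindle protein, had 2 UMIs each in gamma cells, with log2 ratios of -4.50 (-7.57 to -2.59) and -4.19 (-7.27 to -2.27). Mef2c stood at -3.04, Scara3 at -3.02, Ly6h at -2.73, Ehf at -2.23 and Hhex at -2.11. Neurog3, the factor that starts the endocrine programme, stood at 25.4 CPM in gamma and 111 CPM in delta cells (-1.68, -1.99 to -1.39). Within the gamma cells Neurog3 stood at 9.22 CPM in Sst-low and 104 CPM in Sst-containing cells.

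Isl1 was present throughout. It stood at 400.0 CPM in gamma cells, 344 CPM in their Sst-low group and 671 CPM in their Sst-containing group. The reference classes had 680 CPM (Sst and Ppy rich), 688 CPM (delta low in Ppy), 460.5 CPM (alpha) and 83.2 CPM (beta). Relative to the median gene, gamma cells differed from alpha cells by a log2 ratio of 0.12 (0.043 to 0.20) and from delta cells by -0.34 (-0.42 to -0.25), both inside the 2-fold limits.

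Against the 609 alpha cells, 314 of 9697 genes (3.24%) were higher in gamma cells and 646 (6.66%) lower. Without centring on the median gene, at -0.32, the counts were 178 higher and 1151 lower. The mean gamma cell combines both groups here, and Hhex, Ppp1r17, Ptprz1 and Bmp3 were among the highest genes through the Sst-containing group. Ppp1r17 stood at 4.07 CPM in Sst-low and 258 CPM in Sst-containing gamma cells, and Bmp3 at 4.07 and 73.6 CPM. For Tox2, a nuclear factor with 1 UMI in alpha cells, the log2 ratio was 7.70 (5.16 to 13.03). Of 6 compared acinar genes, 5 were higher in gamma than in alpha cells, and with the Sst-low cells alone 1 of 4 was higher and 1 lower.

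**Figure D5:**
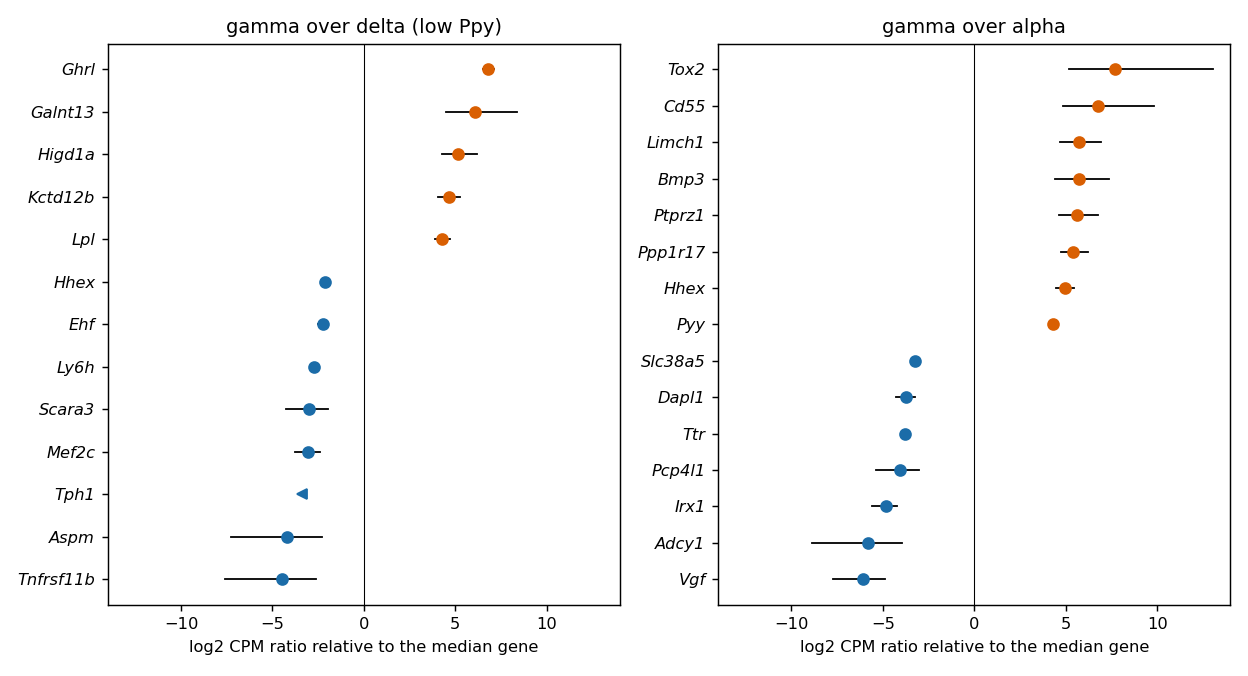
Points give the log2 CPM ratio of gamma cells over delta cells low in Ppy (left) and over alpha cells (right), relative to the median gene, for named genes among the 8 highest and 8 lowest, and lines are exact 95% counting intervals. The triangle marks Tph1, whose value is a bound because gamma cells had 0 UMIs.

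The Sst-low cells alone were also set against alpha cells, with 233 of 9686 genes (2.41%) higher and 713 (7.36%) lower. Gc, which encodes the vitamin D-binding protein, stood at 129 CPM in Sst-low gamma and 131 CPM in alpha cells (log2 0.42). Cd55 stood at 15.5 and 0.154 CPM, with 2 UMIs in alpha cells (7.09, 5.17 to 10.17), Limch1 at 29.3 and 0.616 CPM (6.01) and Pcsk1, which cuts prohormones at other sites than Pcsk2, at 97.9 and 5.01 CPM (4.73, 4.35 to 5.13). Pyy stood at 4.56, Sez6l at 3.53, Tspan8 at 3.48, the metallothionein gene Mt2 at 3.37 and Folr1 at 3.21.

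Of 12 alpha-cell genes, 7 were lower in the Sst-low gamma cells than in alpha cells and 0 higher, with a median log2 ratio of -1.93 against 0 over all genes. Irx1 stood at 4.61 CPM in Sst-low gamma and 155 CPM in alpha cells (-4.63), and transthyretin (Ttr) at 2009 and 30172 CPM (-3.47). Vgf, a secreted granule protein, had 5 UMIs in Sst-low cells (-5.71, -7.34 to -4.48), and Adcy1, a calcium-regulated adenylyl cyclase, had 1 (-6.44, -11.75 to -3.95). Hist1h1b stood at -4.48, Fbp1, an enzyme of gluconeogenesis, at -3.97 and Dapl1 at -3.45. The amino acid transporter gene Slc38a5 stood at 82.7 and 928 CPM. Pdx1 and Nkx6-1, known from beta cells, were higher in Sst-low gamma cells, at 45.3 and 12.5 CPM (2.30) and at 74.3 and 35.7 CPM (log2 interval 1.28 to 1.72).

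Between the 2 gamma groups, 206 of 2765 genes (7.45%) were higher in Sst-low cells and 135 (4.88%) lower. Since Sst cut the groups, and Ppy and depth differ with it, these values are descriptions. Ghrl stood at 1654 CPM in Sst-low and 90.7 CPM in Sst-containing cells (4.56, 4.22 to 4.92), and Ttr at 2009 and 280 CPM (3.21). Gast had 0 UMIs in Sst-containing cells and was at least 13.2-fold higher in Sst-low cells. Kctd12b stood at 4.52, the protease gene Pappa2 at 3.84, the axon guidance receptor gene Robo2, with 2 UMIs in Sst-containing cells, at 4.62 (2.74 to 7.67) and Ube2c, with 1, at 5.14 (2.63 to 10.45). Ube2c was the 1 of 10 mitotic genes with enough UMIs to be compared. Summed, the 10 genes ran the other way, at 102 CPM in Sst-low and 152 CPM in Sst-containing cells.

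Lower in Sst-low than in Sst-containing gamma cells were Ppp1r17 (-5.61), Ppp1r14c (-4.91), Hhex (-4.76), Spock3 (-4.76), Frzb (-4.28), arginase 1 (Arg1) at 41.2 and 887 CPM (-4.06), Fam159b (-4.02) and Cd24a (-3.86). All 4 compared delta-cell genes, Hhex, Rbp4, Ffar4 and Pdx1, were lower, and 7 of 10 alpha-cell genes were higher with 0 lower. All 6 compared acinar genes were lower as well. Rbp4 stood at 993 CPM in Sst-low and 10627 CPM in Sst-containing cells, near the 10291 CPM of the cells rich in Sst and Ppy.

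Other hormones varied inside the gamma group. Iapp, the islet amyloid peptide, ranged from 0.00648% to 6.15% of a gamma cell's UMIs with a median of 0.586%, and reached 1% in 80 of 195 cells. Its median was 0.207% in Sst-low and 1.89% in Sst-containing cells, against 0.0634% in alpha and 3.25% in beta cells. Ghrl reached 1% in 5 gamma cells, the highest at 1.87%, and at least 1 UMI was counted in 57.3% of Sst-low and 13.5% of Sst-containing cells. After thinning these shares were 49.0% and 3.85%, against 39.1% in alpha and 2.4% in beta cells. Over all gamma cells the thinned share was 36.9%. Cck stood at 16.2 CPM in gamma and 3.08 CPM in alpha cells (2.72). After thinning, a Cck UMI was counted in 3.08% of gamma, 2.92% of delta and 1.97% of alpha cells.

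Receptors and channels were mostly sparse. Casr, the calcium-sensing receptor, stood at 17.1 CPM in gamma cells and 7.94 CPM in the other control cells. It was the 1 receptor gene of 21 counted as higher, while 9, among them Glp1r, Gcgr and Oxtr, were lower. Over all genes compared, 1.5% were higher and 10.4% lower. With the Sst-low cells alone, the 1 receptor gene of 23 counted as higher was Gpr119, and 9 were lower. The shares over all genes were then 1.97% and 11.6%. The fatty acid receptor Ffar4 stood at 69.7 CPM in Sst-low and 263 CPM in Sst-containing cells, and Ffar1 at 21.1 and 2.63 CPM. Gpr119, a receptor for lipid amides, stood at 24.4 CPM in Sst-low and 15.8 CPM in Sst-containing cells, and 42.8 CPM in alpha cells. The potassium channel genes Kcnk3 and Kcnk16 were the 2 of 21 channel genes counted as higher in gamma than in the other control cells, and 4 were lower. With the Sst-low cells alone, Kcnk3 was the 1 of 20 counted as higher, and 4 were lower. Among vesicle genes, Rab3c stood at 22.9 CPM in gamma and 5.26 CPM in the other control cells, and Rab3b at 113 CPM in Sst-low and 392 CPM in Sst-containing cells.

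A small part of the gamma cells was cycling. At least 3 of 10 mitotic genes were counted in 9 of 195 gamma cells (4.62%, 2.13 to 8.58), against 9.03% of alpha, 4.66% of delta and 5.82% of beta cells. After thinning, the share was 6 of 195 gamma cells (3.08%, 1.14 to 6.58) and 7.55% of alpha cells (5.58 to 9.95), so the intervals of gamma and alpha overlapped. The summed level of the 10 genes was 111 CPM in gamma and 474 CPM in alpha cells.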

How the data were processed

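The authors deposited UMI counts per gene and barcode as 10x-style matrices. Per the submitters' processing notes, GRCm38.p6, STARsolo, Seurat 4.3.0.1 and STAR 2.7.3a were used; strand use is not stated there. The control matrix lists 6794880 barcodes, empty droplets included, whereas the Isl1CKO matrix lists 3020. Cells were chosen and classed by the hormone rule, and the members and gene lists were chosen with earlier results of these data known. UMIs were summed per class and divided by the class total (CPM). Ratios carry exact conditional binomial intervals, levels exact Poisson and shares exact Clopper-Pearson intervals (95%). Named genes are the 12 (other control cells) or 8 highest and lowest, ranked by that end of each interval which lies closest to 0, without genes of the rule, of acinar or red blood cells, of ribosomes or mitochondria, without a proper name, or sex-linked, plus members of 27 lists; some genes that met this rule are not reported here. Neighbours used 2000 variable genes and 30 components (scanpy 1.11.5), Leiden clusters resolution 1. The comparison was tested on simulated counts. A size rule, not a test, was used. Alternatives were other gates, scalings, depths and minimum counts.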

Additional observations from a re-analysis of the deposited data

How the results depend on the processing

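No paired analysis was possible because there is 1 library per genotype. All 1597 named-gene ratios recomputed under the alternatives that apply to each kept the sign of every value past 2-fold, and 1188 of them stayed inside the counting interval of the reported value. The gamma share of 7.81% became 5.93% with Ppy at 10% or more and 5.93% with the other hormones below 1% (148 cells each). The share of gamma neighbours over all 195 gamma cells was 67.1%, 65.8% with 30 neighbours and 66.2% with 15 components. In Sst-containing cells alone it was 13.8% with 15 components, against the 17.9% reported. The cycling share stayed within its interval under the alternatives tried.

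The counts of genes past 2-fold moved under several settings, and fewer cells or counts also leave fewer genes to compare. Against the other control cells, 145 higher genes became 91 with totals outside the hormones, where ratios were not centred on the median gene. The higher count was 67 with the mean of per-cell CPM, 43 after thinning, 288 at a minimum of 20 UMIs and 381 after background subtraction. The 1003 lower genes became 630 after thinning and 351 in cells holding Xist but no Y-linked UMIs (Xist cells). That subtraction scaled the empty-droplet profile by haemoglobin, to 0.244% of UMIs in gamma and 33.5% in the other cells, where 57 of 876 beta cells held 16744 of the 16787 UMIs of red blood cell genes, so it is no background share of that class. Against the cells rich in Sst and Ppy, the higher and lower counts were 64 and 84 after thinning, 380 and 438 at 20 UMIs and 37 and 35 in Xist cells. Against delta cells they were 62 and 172 after thinning, 345 and 610 at 20 UMIs and 37 and 46 in Xist cells, and the lower count was 486 with Ppy at 10%. Against alpha cells they were 173 and 386 after thinning, 561 and 1126 at 20 UMIs and 118 and 291 in Xist cells. Sst-low against alpha cells gave 99 and 455 after thinning, 449 and 1177 at 20 UMIs and 84 and 403 in Xist cells. Sst-low against Sst-containing cells gave 67 and 59 after thinning, 522 and 328 at 20 UMIs and 42 and 29 in Xist cells, and 84 lower genes in cells holding Y-linked but no Xist UMIs.

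Alternatives chosen after seeing the data were uncentred ratios over all UMIs, the Sst cut and leaving out 1 acinar-rich cell. Without centring, the lower count was 447 against cells rich in Sst and Ppy, the higher and lower counts were 113 and 868 against delta cells, and they were 178 and 1151 against alpha cells. With Sst-low cells only, the lower count was 358 against cells rich in Sst and Ppy and 523 against delta cells. Without the gamma cell richest in acinar transcripts, the counts against all other control cells and between the gamma groups moved by less than 1.5 times; the other comparisons were not run.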

Other observations

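Sst-low cells were 22 of the 37 gamma cells that held Xist but no Y-linked UMIs (59.5%, 42.1 to 75.2) and 105 of the 135 gamma cells that held Y-linked but no Xist UMIs (77.8%, 69.8 to 84.5). Gamma cells were 8.19% of the control cells of the first kind and 7.68% of the second. The labels do not tie cells to animals, so no comparison between sexes was made.

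With every cell thinned to 6825 UMIs, the median number of genes was 1863 in Sst-low gamma cells, 2393 in Sst-containing gamma cells, 2279 in cells rich in Sst and Ppy, 2350 in delta cells low in Ppy, 2163 in alpha cells and 1286 in beta cells. Without thinning the medians were 4069 in Sst-low and 3615 in Sst-containing gamma cells.

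Of 17 neuronal genes, 6 could be compared between Sst-low and Sst-containing gamma cells. In Sst-low cells 1 (Uchl1) was higher and 2 (Gap43 and Nnat) were lower, beside 7.45% and 4.88% of all genes compared. Counts this small in a short list describe single genes and no pattern of the list. Gap43, a growth cone protein, stood at 23.6 CPM in Sst-low and 219 CPM in Sst-containing gamma cells. Uchl1, a neuronal ubiquitin hydrolase, stood at 202 CPM in Sst-low and 114 CPM in Sst-containing cells. Sox9, a factor of ductal and progenitor cells, had 31 UMIs in Sst-low cells and stood at 105 CPM in Sst-containing gamma cells, against 94.1 CPM in cells rich in Sst and Ppy and 3.70 CPM in alpha cells. Insm1, an endocrine zinc-finger factor, stood at 38.0 and 112 CPM, and Meis2, a homeobox factor, at 259 and 533 CPM.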
